A study of Mus musculus with 6 samples.

Results

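The collagen prolyl and lysyl hydroxylases are the enzymes and partner proteins that modify procollagen chains in the endoplasmic reticulum. The 9 genes described here were taken by symbol from the 22033 genes with a symbol in the deposited table: the prolyl 4-hydroxylase alpha subunit genes P4ha1, P4ha2 and P4ha3, the beta subunit gene P4hb, the lysyl hydroxylase genes Plod1, Plod2 and Plod3, the prolyl 3-hydroxylase gene P3h1 and its partner gene Crtap. RNA of heart muscle cells was sequenced from wild-type mice at postnatal day 21, in 3 libraries from mice injected daily for 2 weeks with α-ketoglutarate (AKG, 300 mg per kg per day) and in 3 libraries from mice injected with phosphate-buffered saline (Control). Cells were isolated from the heart by Langendorff perfusion, and the study asked by which pathways AKG might act on the division of heart muscle cells. Whether each library stands for 1 animal or for several pooled animals is not in the labels, and the p-values therefore measure only the spread between libraries, which may be technical.

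AKG is 2-oxoglutarate, the cosubstrate that collagen hydroxylases consume together with oxygen, with iron in the active site and ascorbate to keep it reduced. Prolyl 4-hydroxylase is a complex of alpha subunits, which hold the active site, and of beta subunits, and the hydroxyproline it makes keeps the collagen triple helix folded at body temperature. Lysyl hydroxylases make the hydroxylysine that carries sugars and forms the crosslinks between collagen molecules. In the heart collagen is made mainly by fibroblasts, while vascular cells and heart muscle cells contribute to the basement membrane. Hypoxia-inducible factor (HIF), which activates P4ha1, P4ha2, Plod1 and Plod2 in several cell types, binds DNA at the core letters ACGTG or GCGTG.

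The promoter windows of the alpha subunit genes are printed because these genes had the largest fold changes among the 9. They are RefSeq sequences on GRCm38.p6, from 250 bases before to 50 bases after the annotated start, on the plus strand in each case: chr10:59323046-59323345 for P4ha1, chr11:54100674-54100973 for P4ha2 and chr7:100285270-100285569 for P4ha3. Capitals mark ACGTG and GCGTG on either strand, so that CACGT and CACGC are matches on the other strand.
P4ha1: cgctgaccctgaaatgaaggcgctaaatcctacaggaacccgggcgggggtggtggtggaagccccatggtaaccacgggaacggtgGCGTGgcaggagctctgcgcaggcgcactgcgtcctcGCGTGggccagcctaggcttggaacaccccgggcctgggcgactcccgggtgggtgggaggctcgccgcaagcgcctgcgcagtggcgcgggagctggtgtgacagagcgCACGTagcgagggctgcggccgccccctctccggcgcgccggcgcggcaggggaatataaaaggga
P4ha2: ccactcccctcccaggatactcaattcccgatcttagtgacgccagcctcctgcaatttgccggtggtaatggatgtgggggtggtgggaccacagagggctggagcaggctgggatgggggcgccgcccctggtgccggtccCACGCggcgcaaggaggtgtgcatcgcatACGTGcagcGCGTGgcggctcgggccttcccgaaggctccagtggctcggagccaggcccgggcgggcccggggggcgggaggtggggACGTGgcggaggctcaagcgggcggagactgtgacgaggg
P4ha3: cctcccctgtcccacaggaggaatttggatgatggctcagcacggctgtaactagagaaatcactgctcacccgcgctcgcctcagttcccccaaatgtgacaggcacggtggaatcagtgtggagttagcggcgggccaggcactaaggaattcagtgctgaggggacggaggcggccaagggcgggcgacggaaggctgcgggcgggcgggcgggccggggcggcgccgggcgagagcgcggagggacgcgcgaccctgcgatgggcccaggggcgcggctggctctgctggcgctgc

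P4ha1 held 3 matches, whose first bases lay 163, 126 and 16 bases before the start. P4ha2 held 4 matches, at 107, 78 and 69 bases before the start and at base 11 after it. P4ha3 held none. Of the 9 genes 8, all but Plod2, matched the RefSeq table, in 9 windows because P3h1 had 2 annotated starts, and 8 of these windows held at least 1 match. ACGTG was in 5 and GCGTG in 7 of the 9 windows. Of the 32851 windows of 300 bases that RefSeq gave for all genes, 43.8% held a match, 19.6% for ACGTG and 32.4% for GCGTG. The windows of all genes were not matched to the 9 for GC content, so no enrichment is read from these shares. The letters CACGTG, which overlap ACGTG, were in none of the 9 windows and in 7.2% of all. The windows of P4ha1, P4ha2 and P4ha3 had a GC content of 70.3%, 70.3% and 69.3%. A match of letters describes the sequence and shows no binding.

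Libraries held 14402875 to 17797348 counts. Levels are given as CPM, counts brought to a common library total after TMM scaling (a trimmed mean over genes), so a difference is relative to the bulk of genes, and 3 counts correspond to 0.167 to 0.221 CPM. Heart muscle markers were abundant, with a summed level of 34284 to 37939 CPM in AKG and 69360 to 75049 CPM in Control over 13 genes such as Myh6 and Tnnt2. Markers of other cells of the heart were present as well: none of the 14 fibroblast, 12 endothelial, 10 pericyte and smooth muscle or 12 macrophage markers stood at 0 in the table. AKG 2 held 1.12 CPM of the atrial gene Myl7, beside 138 and 88.0 CPM in AKG 1 and AKG 3 and at most 4.15 CPM in Control, and Control 2 held 0.311 CPM of Y-linked transcripts, where the other libraries held 39.0 to 176 CPM.

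Preparations from AKG-treated mice held less transcript of the major alpha subunits of prolyl 4-hydroxylase and of Plod1 relative to the bulk of genes, and more of the minor alpha subunit gene P4ha3. P4hb, Plod2, Plod3 and P3h1 did not pass the threshold. At an adjusted p under 0.05 in edgeR's quasi-likelihood test with Benjamini-Hochberg adjustment over all 13117 tested genes, 1 of the 9 genes rose (P4ha3), 4 fell (P4ha1, P4ha2, Plod1 and Crtap) and 4 did not pass. Over all tested genes 50.2% passed, 25.0% higher and 25.2% lower, so the number of hydroxylase genes that passed was near the share of all genes. Their median log2 fold change was -0.07, beside 0.00 for all tested genes. All 9 passed the filter on low counts, P4ha3 only through the AKG libraries, so its rise was favoured by the filter. Scaled by total counts, 5 of the 9 were higher (56.7% of all tested genes) and 2 lower (9.12%), and on log2(FPKM + 1) 4 of 8 were higher (58.1%) and 2 lower (9.22%). The CPM values of the groups did not overlap for 6 of the 9 genes, where 59.2% of all tested genes had groups that did not overlap. In bulk RNA, fewer cells of a type and less RNA per cell cannot be told apart.

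**Figure D1:**
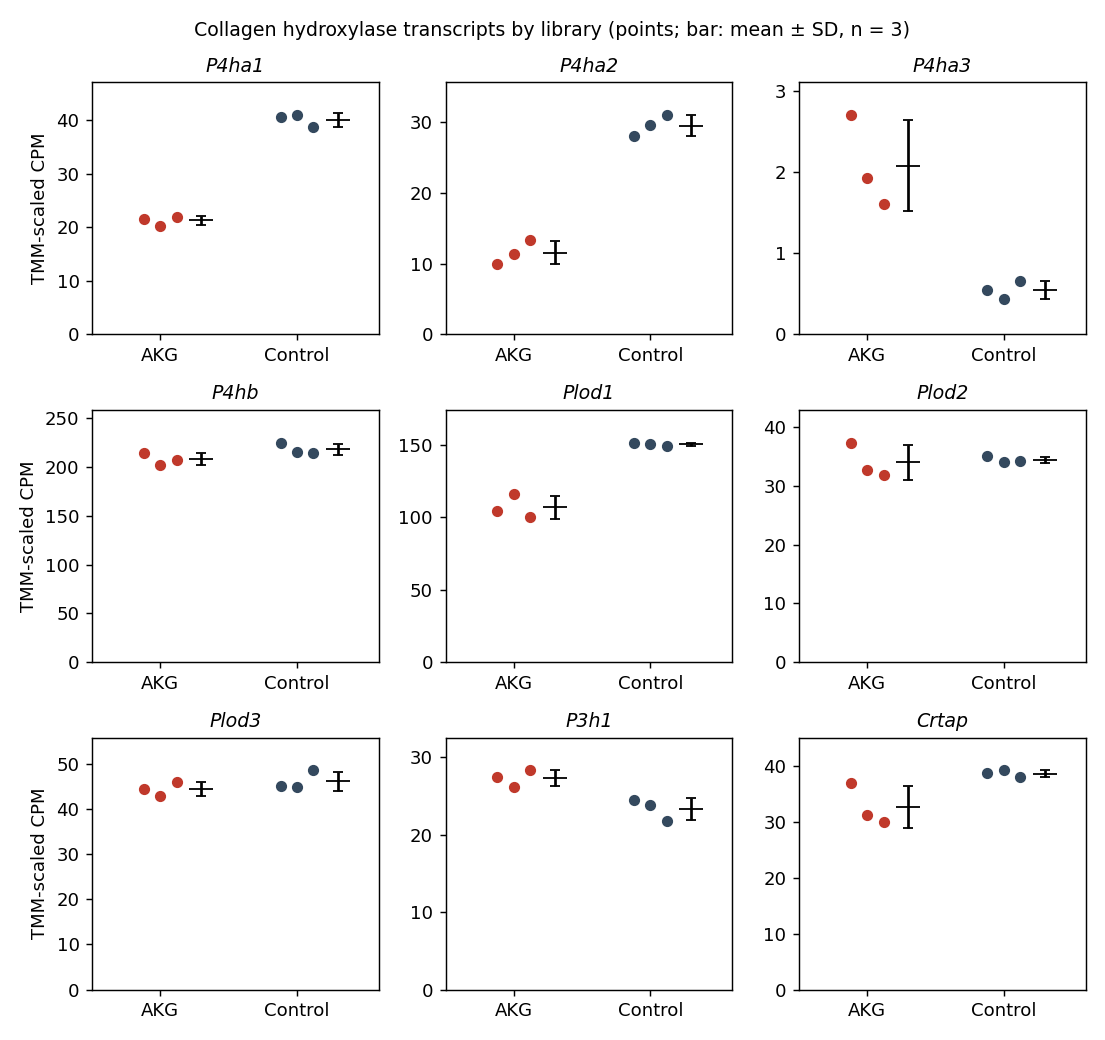
TMM-scaled CPM (y axis, from 0, a separate scale in each panel) of the 9 genes in the 3 AKG and 3 Control libraries, with points for libraries and bars for mean ± SD (n = 3). The AKG points of P4ha1, P4ha2 and Plod1 lie below all Control points and those of P4ha3 above them, while the groups of P4hb, Plod2 and Plod3 overlap.

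P4ha2, an alpha subunit prominent in chondrocytes and endothelial cells, stood at 10.01, 11.3 and 13.3 CPM in AKG 1, 2 and 3, against 27.97, 29.5 and 30.9 CPM in Control 1, 2 and 3. Every AKG library was below every Control library. The means were 11.5 ± 1.67 CPM in AKG and 29.5 ± 1.47 CPM in Control (SD, n = 3 each), a log2 fold change of -1.35 (SE 0.115) (adjusted p = 7.51e-07, edgeR quasi-likelihood test). P4ha1, the alpha subunit expressed in most tissues, stood at 21.6, 20.3 and 22.0 CPM in AKG 1, 2 and 3, against 40.6, 40.9 and 38.6 CPM in Control 1, 2 and 3. The groups were again apart, at means of 21.3 ± 0.878 CPM in AKG and 40.05 ± 1.23 CPM in Control. The log2 fold change of P4ha1 was -0.91 (SE 0.0853, edgeR quasi-likelihood adjusted p = 1.73e-06). Among tested genes, 94.1% had a log2 fold change no larger in size than that of P4ha2 and 85.8% none larger than that of P4ha1. Both genes stayed past the threshold under each of the 20 alternatives run, with log2 fold changes between -1.46 and -0.81 for P4ha2 and between -0.98 and -0.46 for P4ha1.

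P4ha3, an alpha subunit of low abundance in most tissues, held 48, 31 and 29 counts in AKG 1, 2 and 3, against 8, 7 and 9 counts in Control 1, 2 and 3. These counts correspond to 2.70, 1.93 and 1.61 CPM in AKG and to 0.544, 0.435 and 0.663 CPM in Control. All AKG values lay above all Control values, with AKG 1 the highest. The log2 fold change was 1.92 (SE 0.372, edgeR quasi-likelihood adjusted p = 0.000753), a 3.79-fold difference that rests on 108 counts in AKG and 24 in Control. It was one of 2 of the 9 genes that passed with a change of at least 2-fold, the other being P4ha2, and 10.8% of all tested genes did so. Under the 18 alternatives that could test it the log2 fold change of P4ha3 was 1.69 to 2.36, and without the filter it was 1.93, but the favour that the filter gives to its rise limits what this shows.

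P4hb, protein disulfide isomerase, serves as the beta subunit of prolyl 4-hydroxylase and also acts alone as an oxidoreductase that folds proteins. Its transcript stood at 215, 202 and 208 CPM in AKG 1, 2 and 3, against 225, 216 and 215 CPM in Control 1, 2 and 3. The highest AKG library reached into the Control range, and the log2 fold change of -0.07 (SE 0.0727) did not pass (edgeR quasi-likelihood adjusted p = 0.454). Its sign turned when libraries were scaled by their total counts: the log2 fold change was then 0.38 (adjusted p = 0.00134), beside a median of 0.45 over all tested genes.

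Among the lysyl hydroxylases Plod1 fell. Plod1, which acts on lysines in the helical part of collagen, stood at 104, 116 and 100.4 CPM in AKG 1, 2 and 3, against 151, 150.5 and 149 CPM in Control 1, 2 and 3. The AKG libraries were all lower and more spread, at 107 ± 7.98 CPM in AKG and 150.2 ± 1.29 CPM in Control. The log2 fold change was -0.49 (SE 0.0755, edgeR quasi-likelihood adjusted p = 0.000118). Under total-count scaling it was -0.05 (edgeR quasi-likelihood adjusted p = 0.600), so the fall of Plod1 is a fall against most other genes and was not seen in its share of all counts.

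Plod2, which acts on lysines of the telopeptides at the collagen ends, stood at 37.4, 32.8 and 31.9 CPM in AKG 1, 2 and 3, against 35.1, 34.1 and 34.3 CPM in Control 1, 2 and 3. AKG 1 was the highest of the 6 libraries and AKG 3 the lowest, so the groups overlapped fully. Plod3, which also transfers sugars to hydroxylysine, stood at 44.3, 42.9 and 45.9 CPM in AKG 1, 2 and 3, against 45.1, 44.8 and 48.5 CPM in Control 1, 2 and 3. Neither gene passed, with log2 fold changes of -0.02 (SE 0.0887) for Plod2 and -0.06 (SE 0.0774) for Plod3. Their edgeR quasi-likelihood adjusted p-values were 0.868 and 0.575. Under total-count scaling both signs turned, to 0.42 for Plod2 (adjusted p = 0.00185) and 0.39 for Plod3 (adjusted p = 0.00229), again beside a median of 0.45 over all tested genes. In the GENCODE M21 annotation exons of Plod3 share 529 bases with exons of the opposite-strand gene Znhit1 and those of Plod2 share 346 bases with Gm38391. The sources used here do not say that counting used strand, so reads of these partners cannot be told apart.

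P3H1 and CRTAP form, with the prolyl isomerase encoded by Ppib, the complex that adds a hydroxyl group at another carbon of a few prolines. P3h1 stood at 27.4, 26.2 and 28.3 CPM in AKG 1, 2 and 3, against 24.4, 23.9 and 21.7 CPM in Control 1, 2 and 3. The groups did not overlap, yet the log2 fold change of 0.23 (SE 0.0913) missed the threshold (edgeR quasi-likelihood adjusted p = 0.0527). Under total-count scaling it was 0.67 (adjusted p = 7.39e-05). Crtap, which has no hydroxylase activity of its own, stood at 37.0, 31.2 and 30.0 CPM in AKG 1, 2 and 3, against 38.7, 39.3 and 38.1 CPM in Control 1, 2 and 3. AKG 1 lay close to the Controls and the other AKG libraries lay well below them. Crtap passed narrowly, at a log2 fold change of -0.24 (SE 0.0944, edgeR quasi-likelihood adjusted p = 0.0469), and 13 of the 20 alternatives ended the call or turned its sign. Among them were DESeq2 (adjusted p = 0.0853) and the fits without Control replicate 1, 2 or 3 or without AKG replicate 2 or 3 (adjusted p = 0.102, 0.114, 0.0837, 0.14 and 0.137). Over all 20 alternatives the adjusted p ran from 0.00724 to 0.14 for Crtap, from 7.39e-05 to 0.398 for P3h1, from 0.00134 to 0.712 for P4hb, from 2.51e-07 to 0.600 for Plod1, from 0.00185 to 0.96 for Plod2 and from 0.00229 to 0.887 for Plod3.

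**Figure D2:**
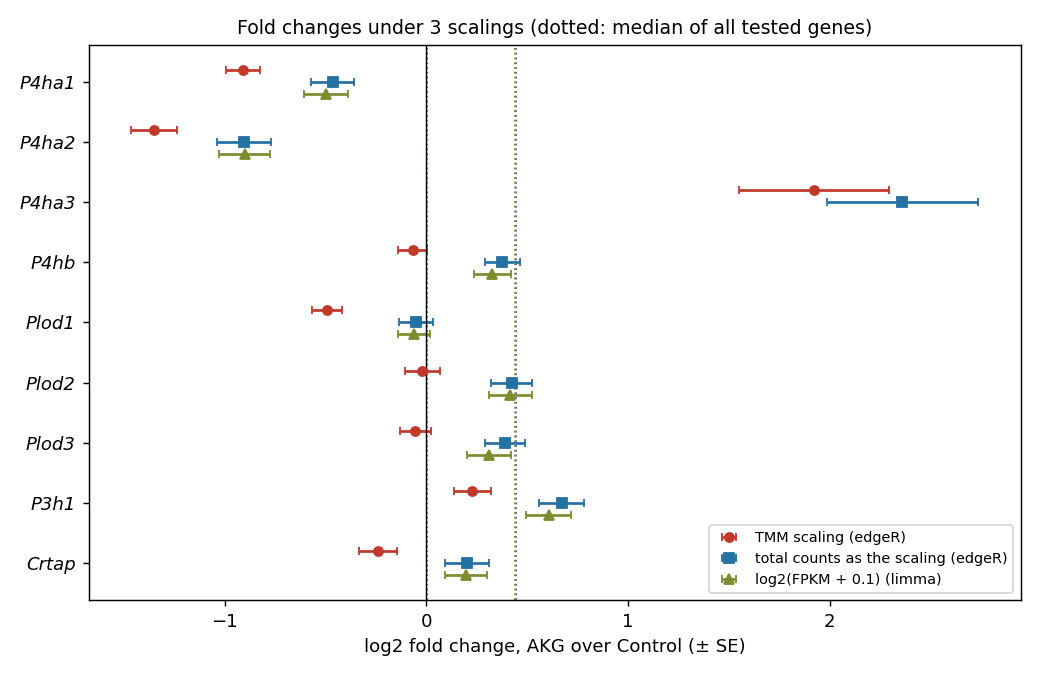
Log2 fold change of AKG over Control (x axis, ± SE) for the 9 genes with TMM scaling, under total-count scaling and on log2(FPKM + 0.1), where P4ha3 was below the FPKM minimum. Dotted lines give the median of all tested genes, which moves to 0.45 with total counts; P4ha1 and P4ha2 stay below 0 and P4ha3 above 0, while P4hb, Plod2, Plod3 and Crtap change sign.

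The deposited fold changes and p-values of these genes show the same dependence on scale. In the authors' deposited table, Plod1 had a log2 fold change of mean FPKM of -0.06 beside a false discovery rate of 1.5e-07. The authors' deposited table had a false discovery rate under 0.05 for 4 of the 9 genes (P4ha1, P4ha2, P4ha3 and Plod1) and for 26.7% of 22033 genes. Only 13117 of the 22033 genes passed the filter on low counts, which all 9 passed, so these shares have unlike bases and are not compared. In the same authors' deposited table P3h1 had a log2 fold change of 0.61 and a false discovery rate of 0.144, and P4hb one of 0.33 and a rate of 0.590. P4ha2, P4ha1 and P4ha3 were at -0.91, -0.50 and 2.31 in the authors' deposited table, with false discovery rates of 2.91e-18, 1.02e-13 and 0.000844. Over tested genes the log2 fold changes of the authors' deposited table were higher than those computed here from counts by a median of 0.44.

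Levels of different genes are compared by FPKM, which divides by transcript length. In AKG libraries P4hb had the highest FPKM of the 9 genes at 88.0 ± 6.62, followed by Plod1 at 38.8 ± 1.18, Crtap at 22.8 ± 2.56, Plod3 at 17.3 ± 1.78, Plod2 at 10.8 ± 0.939, P3h1 at 10.4 ± 0.760, P4ha1 at 8.15 ± 0.764, P4ha2 at 6.22 ± 0.918 and P4ha3 at 1.05 ± 0.254 (SD, n = 3 each). In Control libraries the order began alike, with P4hb at 70.2 ± 5.88, Plod1 at 40.5 ± 1.96, Crtap at 19.8 ± 1.21 and Plod3 at 13.97 ± 1.23, and then ran to P4ha2 at 11.6 ± 0.858, P4ha1 at 11.5 ± 0.632, Plod2 at 8.08 ± 0.306, P3h1 at 6.81 ± 0.490 and P4ha3 at 0.211 ± 0.0262. Plod2 and P3h1 thus stood above the major alpha subunit genes in AKG and below them in Control. Plod2 and P3h1 overlapped in AKG, and P4ha1 and P4ha2 overlapped in Control, so these neighbours cannot be ordered, while the ranges of all other neighbours in each order were separate. FPKM of the groups did not overlap for 7 of the 9 genes, beside 68.0% of tested genes.

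Ratios between genes of a library do not depend on how libraries are scaled. The FPKM ratio of P4hb to P4ha1 was 11.3, 10.9 and 10.3 in AKG 1, 2 and 3, against 6.49, 5.93 and 5.82 in Control 1, 2 and 3. All AKG ratios exceeded all Control ratios, 1.78-fold on average. The ratio of P4ha2 to P4ha1 was 0.668, 0.812 and 0.808 in AKG 1, 2 and 3, against 0.925, 0.996 and 1.11 in Control 1, 2 and 3, and the groups were again apart. The ratio of P4ha3 to P4ha1 was 0.130 ± 0.0355 in AKG and 0.0184 ± 0.00326 in Control. Of the summed alpha subunit FPKM, P4ha3 made up 8.94%, 6.87% and 4.89% in AKG 1, 2 and 3, against 0.961%, 0.747% and 1.01% in Control 1, 2 and 3. P4ha2 made up 40.2 ± 3.29% in AKG and 49.8 ± 2.27% in Control, and P4ha1 made up 52.9 ± 1.61% in AKG and 49.4 ± 2.31% in Control.

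Among the lysyl hydroxylases Plod1 made up a smaller part in AKG libraries. The FPKM ratio of Plod2 to Plod1 was 0.311, 0.249 and 0.279 in AKG 1, 2 and 3, against 0.200, 0.197 and 0.201 in Control 1, 2 and 3. The AKG values were all higher, 1.40-fold on average, and varied more. The ratio of Plod3 to Plod1 was 0.448 ± 0.0563 in AKG and 0.346 ± 0.0457 in Control, and that of P3h1 to Crtap 0.460 ± 0.0484 in AKG and 0.344 ± 0.0116 in Control. Of the summed FPKM of the family, Plod1 made up 58.0 ± 2.53% in AKG and 64.8 ± 2% in Control. For each of the 6 ratios the groups did not overlap, and the exact two-sided permutation p was 0.1, also when adjusted over the 6, which is the smallest that 3 libraries against 3 can give. How often ratios of other gene pairs do not overlap was not computed, while 68.0% of tested genes did not overlap in FPKM. The ratio of P4ha3 to P4ha1 rests on 7 to 9 counts of P4ha3 per Control library. Each ratio kept its direction with counts in place of FPKM. Leaving out any 1 library could not turn a direction, because the groups did not overlap. The transcript length implied by FPKM and counts was 3662 to 3663 bases for Plod2 and 1674 bases for Crtap in all libraries, but it varied between libraries for the others. It ranged from 2664 to 3169 bases for Plod3, from 2503 to 2826 for P4hb, from 2107 to 2361 for P4ha3, from 2878 to 3108 for P3h1, from 2931 to 3099 for P4ha1, from 2102 to 2249 for P4ha2 and from 3156 to 3219 for Plod1, so the FPKM ratios and shares of these genes also carry the length assigned to them in each library.

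**Figure D3:**
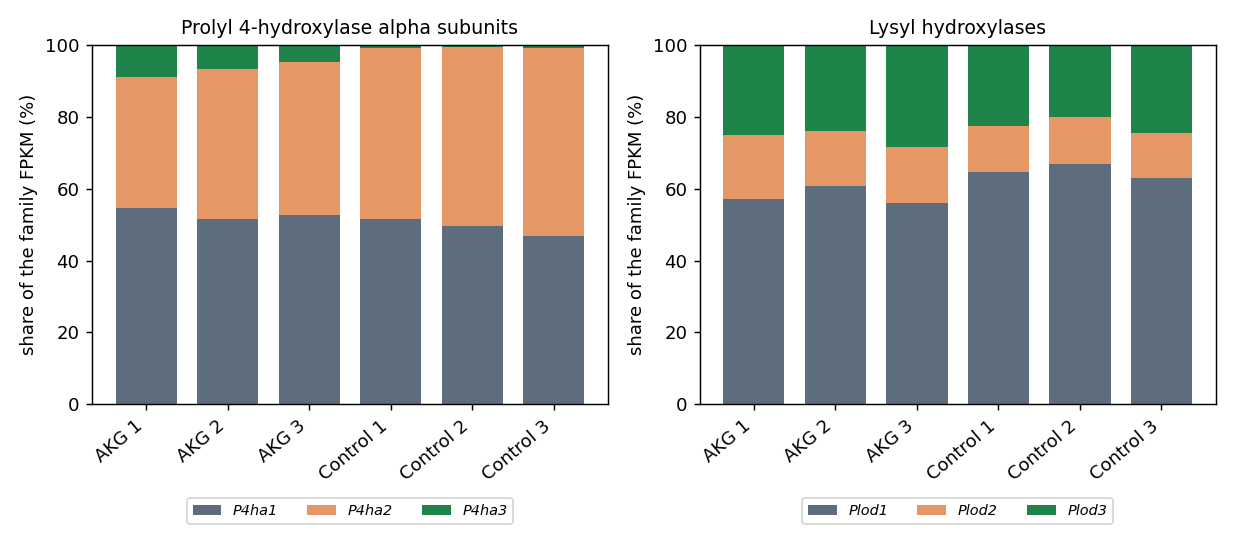
Share of summed FPKM (y axis, percent) held by P4ha1, P4ha2 and P4ha3 and by Plod1, Plod2 and Plod3 in each of the 6 libraries. P4ha3 takes 4.89% to 8.94% of the alpha subunit total in AKG libraries and at most 1.01% in Control libraries, and Plod1 is below its Control shares in every AKG library.

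Fibroblasts are the main source of collagen, and most called fibroblast markers were lower in AKG preparations with TMM scaling. Of 13 tested markers 8 fell and 2 rose, while 2 were lower and 3 higher under total-count scaling. With TMM scaling Pi16 and Mfap5 had the smallest p, at log2 fold changes of -1.83 and -1.49. The 2 that rose were Pdgfra and Tcf21, at 0.49 and 0.54, so the markers did not move as 1 set. The list summed to 1035 to 1247 CPM in AKG and 1457 to 1679 CPM in Control. Pericyte and smooth muscle markers summed to 1412 to 1609 CPM in AKG and 2328 to 2549 CPM in Control, endothelial markers to 2132 to 2517 CPM in AKG and 2210 to 2413 CPM in Control, and macrophage markers to 96.5 to 126 CPM in AKG and 146 to 226 CPM in Control. The pericyte and smooth muscle sum rests mainly on Acta2, at 130 CPM in AKG and 648 CPM in Control, and on Rgs5, at 693 and 1061 CPM. Pdgfrb, Notch3 and Cnn1 did not pass, and Abcc9 rose to 338 CPM in AKG, against 257 CPM in Control. By call with TMM scaling, 1 rose and 6 fell of 10 pericyte and smooth muscle markers, 3 rose and 3 fell of 12 endothelial markers, and 5 of 12 macrophage and 10 of 13 heart muscle markers fell with none rising. Under total-count scaling these counts were 3 and 2, 8 and 1, 1 and 2, and 3 and 7. The part of these cells in the levels of the hydroxylase genes was not tested. With TMM scaling the 9 hydroxylase genes together held 481 to 500 CPM in AKG and 576 to 589 CPM in Control. Abundant genes weigh most in this sum, among them Plod1 at 107 CPM in AKG and 150 CPM in Control. The median log2 fold change of the 9 was -0.07 with TMM scaling and 0.38 under total-count scaling, so the sum shows no fall common to them. The listed collagen chains held 5532 to 6264 CPM in AKG and 5987 to 6742 CPM in Control. The collagen chain CPM per hydroxylase CPM was 12.5, 11.4 and 11.99 in AKG 1, 2 and 3, against 11.1, 11.7 and 10.4 in Control 1, 2 and 3, and the groups overlapped.

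The counts of the marker and pathway lists stand against the shares over all tested genes: 25.0% higher and 25.2% lower with TMM scaling, and 56.7% and 9.12% under total-count scaling. Nothing particular to a list is read from its counts. Of 19 listed collagen chain genes, the substrates of the hydroxylases, 5 rose and 7 fell, with a median log2 fold change of -0.16. The list is partial: Col28a1, Col4a3 and Col4a4 lie outside it, at log2 fold changes of 2.85, -1.75 and -1.59, and had smaller p than any listed chain. Col15a1, a basement membrane collagen, fell to 121 CPM in AKG, against 282 CPM in Control (log2 fold change -1.22, edgeR quasi-likelihood adjusted p = 8.77e-07), and Col8a1, a short-chain collagen of vessels, fell to 5.79 CPM in AKG, against 14.96 CPM in Control. Col18a1, the precursor of endostatin, rose to 161 CPM in AKG, against 70.8 CPM in Control (1.19, adjusted p = 1.13e-06 in the same test), and the fibrillar chain gene Col11a1 rose to 6.32 CPM in AKG, against 1.04 CPM in Control. The main fibrillar chains Col1a1, Col1a2 and Col3a1 did not pass, with log2 fold changes of -0.26, -0.09 and -0.03. Under total-count scaling 8 chains were higher and 4 lower.

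Among other genes of the prolyl hydroxylase families and complexes, 2 of 6 tested fell and none rose (median -0.22), while 3 were higher and none lower under total-count scaling. P4htm, a transmembrane prolyl hydroxylase of the endoplasmic reticulum, stood at 9.02 CPM in AKG and 13.3 CPM in Control (log2 fold change -0.57, edgeR quasi-likelihood adjusted p = 0.00729). P3h4, which has no hydroxylase activity and partners lysyl hydroxylase, stood at 20.5 CPM in AKG and 26.3 CPM in Control (-0.36, adjusted p = 0.00907). Ppib, the isomerase partner of P3h1, and P3h2, which acts on basement membrane collagen, did not pass, at log2 fold changes of -0.19 and 0.39.

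Of 14 genes of collagen chaperoning, glycosylation and secretion 4 rose and 5 fell, with a median of -0.15, and 7 were higher and 1 lower under total-count scaling. Serpinh1, the collagen-specific chaperone HSP47, fell to 323 CPM in AKG, against 498 CPM in Control (log2 fold change -0.62, edgeR quasi-likelihood adjusted p = 4.15e-05). Colgalt2, a collagen galactosyltransferase, fell by 0.84 and the retrieval receptor gene Kdelr2 by 0.64 on the log2 scale. Fkbp10, an isomerase that assists Plod2, rose to 68.5 CPM in AKG, against 52.3 CPM in Control (0.39, adjusted p = 0.00103). Of 14 genes of propeptide processing and crosslinking 1 rose and 6 fell (median -0.30), and under total-count scaling 6 were higher and 2 lower. Pcolce, an enhancer of propeptide removal, fell to 50.5 CPM in AKG, against 88.8 CPM in Control, and Adamts14, a propeptide protease, and the small proteoglycan gene Dcn fell by 0.99 and 0.52. Lox, the lysyl oxidase that acts on lysine and hydroxylysine to form crosslinks, rose to 32.2 CPM in AKG, against 20.6 CPM in Control (log2 fold change 0.64, adjusted p = 0.000363).

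**Figure D4:**
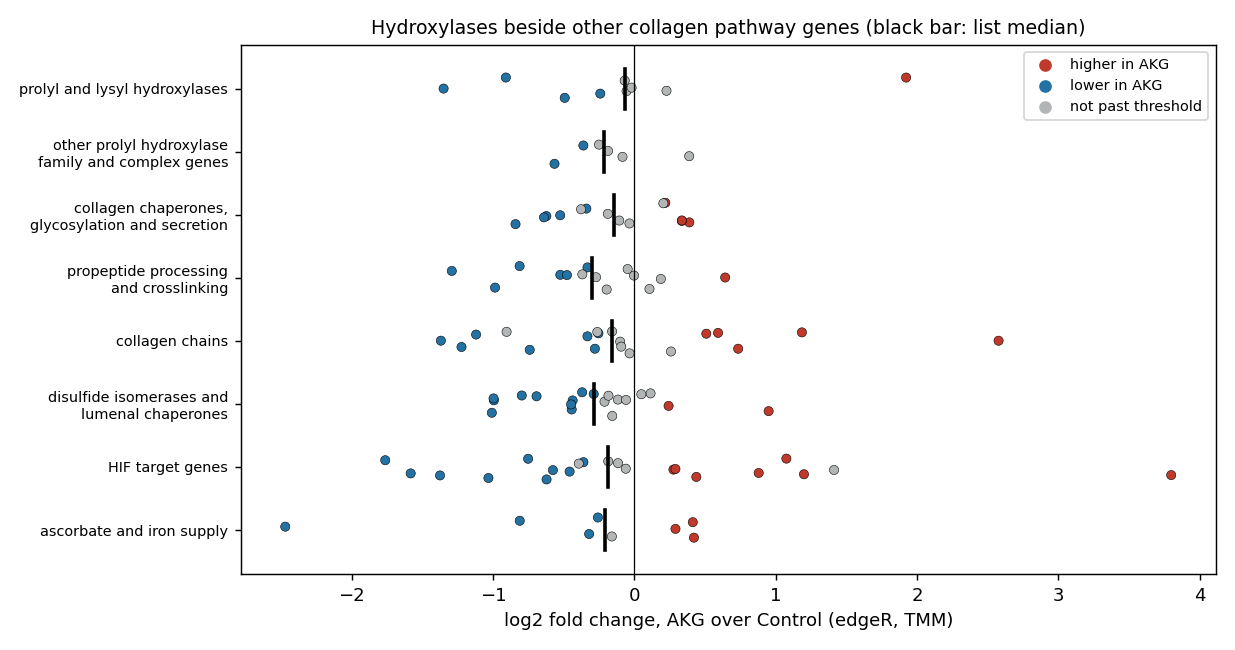
Log2 fold change of AKG over Control with TMM scaling (x axis) for tested genes of 8 lists (rows), coloured by call at an adjusted p under 0.05, with a black bar at the list median. Genes of each list lie on both sides of 0; the hydroxylase row runs from P4ha2 at -1.35 to P4ha3 at 1.92.

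Disulfide isomerases and chaperones share the lumen of the endoplasmic reticulum with P4hb. Of 19 such genes 10 fell and 2 rose (median -0.29) with TMM scaling, while 7 were higher and 3 lower under total-count scaling. Hspa5, the chaperone BiP, fell to 148 CPM in AKG, against 294 CPM in Control (log2 fold change -0.99, edgeR quasi-likelihood adjusted p = 1.16e-06), and Manf, a secreted stress-responsive factor, fell to 16.8 CPM in AKG, against 33.6 CPM in Control. Calr and Tmx1, a lectin chaperone and a thioredoxin-like membrane protein, fell by 0.80 and 0.44 on the log2 scale.

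Of 21 tested HIF target genes other than the hydroxylases 7 rose and 9 fell, with a median of -0.19, and under total-count scaling 9 were higher and 5 lower. The hexokinase gene Hk2 fell by 1.58 on the log2 scale, and the HIF prolyl hydroxylase gene Egln3 fell by 1.76 (edgeR quasi-likelihood adjusted p = 4.32e-09 and 3.09e-08). The Max partner gene Mxi1 and the pyruvate dehydrogenase kinase gene Pdk1 rose to 76.0 and 125 CPM in AKG, against 33.1 and 59.3 CPM in Control (adjusted p = 8.19e-08 and 2.12e-07). Of the HIF-linked hydroxylase genes P4ha1, P4ha2 and Plod1 fell and Plod2 did not pass with TMM scaling. Under total-count scaling P4ha1 and P4ha2 stayed lower, Plod1 did not pass (log2 fold change -0.05) and Plod2 was higher (0.42). Of 8 tested genes of ascorbate and iron supply 3 rose and 4 fell (median -0.21), while 4 were higher and 2 lower under total-count scaling. The transferrin receptor gene Tfrc, which brings iron into the cell, fell to 54.9 CPM in AKG, against 305 CPM in Control (log2 fold change -2.47, adjusted p = 0.000507). The iron transporter gene Slc11a2 and the ferritin gene Fth1 fell by 0.81 and 0.32, and Pcbp2, an iron chaperone, rose by 0.41. A second ferritin gene, Ftl1, and Slc40a1 rose by 0.29 and 0.42, so the ferritin genes moved in opposite directions. The ascorbate transporter gene Slc23a2 stood at 25.6 CPM in AKG and 30.7 CPM in Control (-0.26, adjusted p = 0.0354).

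The genes most like P4ha2 over the 6 libraries, by the root mean square difference of centred log2 CPM among 8751 genes with a mean of at least 10 CPM, were Miga2 (0.0415), Tsfm (0.0433) and Letm1 (0.0483). Miga2 stood at 36.8 ± 4.9 CPM in AKG and 92.9 ± 4.68 CPM in Control. The genes most like P4ha3 were Efnb3 (0.198), Epb41l3 (0.204) and Ednrb (0.211), a looser likeness, and Efnb3 stood at 76.2 ± 10.95 CPM in AKG and 27.1 ± 3.95 CPM in Control. Log2 CPM was taken with a prior count of 2, which shrinks the step of P4ha3, at 7 to 9 counts per Control library. Its matches had log2 fold changes of 1.49, 1.66 and 1.45, against 1.92 for P4ha3, whose rise the filter favoured. With so large a difference between the groups, likeness over 6 libraries reflects mainly the step between them.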

How the data were processed

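Heart muscle cell RNA of 3 AKG and 3 Control libraries was measured by RNA sequencing. The authors deposited 1 table that gives, for every gene in every library, an estimated count rounded to whole numbers and an FPKM value. The authors' deposited table also holds a log2 fold change, which equals the ratio of group mean FPKM, with a p-value and false discovery rate. The submitters' processing notes name HISAT2 2.1.0, RSEM 1.2.19 and DESeq2 1.20.0, and their roles, the genome build and the annotation are not given in the sources used here. FPKM follows the library total, so it moves for all genes when a few very abundant ones change.

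The analysis of counts used edgeR 4.0.16 in R 4.3.3: filterByExpr (minimum count 10, minimum total 15) kept 13117 genes, libraries were scaled by TMM, and AKG was compared with Control by the quasi-likelihood test (robust option) with Benjamini-Hochberg adjustment over all tested genes (threshold 0.05). SE was derived from the test, as the absolute log2 fold change over the root of F. The 30 rows that lack a symbol, with 3.95e-05% of counts, were left out. The edgeR fit with its filter, scaling and adjustment was tested on simulated counts in which the changes were balanced in direction. That simulation held no shift between scalings like the one seen here, and the ratios, FPKM fits and promoter search were not simulated. The 9 genes and all lists were chosen with earlier results of these data known. From each list up to 4 genes with the smallest p were named, and Col1a1, Col1a2, Col3a1 and Slc23a2 were named for their roles after values had been seen. Further cell markers, Ftl1 and Slc40a1 were also named after values had been seen. Col28a1, Col4a3 and Col4a4, which are in no list, were named for their small p. Ratios were tested by exact permutation. Alternatives were other scalings, filters, DESeq2 1.42.0, limma 3.58.1 (voom, and log2 FPKM with pseudocounts of 1 and 0.1), covariates, the replicate block and leaving out each library. Sequences came from RefSeq on GRCm38.p6, and exon overlaps from GENCODE M21. Protein sequences were not used here.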

Additional observations from a re-analysis of the deposited data

How the results depend on the processing

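P4ha1 and P4ha2 kept their direction and stayed past the threshold under the 20 alternatives run. P4ha3 did so under the 18 that could test it and was below the FPKM minimum in the fits on log2 FPKM, but only its AKG libraries reached the count minimum, which favoured a rise. The scaling moved the counts of calls. Scaled by total counts, 5 of the 9 genes were higher and 2 lower, and 7431 genes were higher and 1196 lower of all tested. On log2(FPKM + 1) 4 of 8 were higher and 2 lower, with 6732 and 1068 of all tested, and on log2(FPKM + 0.1) 4 and 2, with 6725 and 1067. In these 3 fits, in the same order, the log2 fold change was 0.38, 0.32 and 0.33 for P4hb, 0.42, 0.38 and 0.42 for Plod2, 0.39, 0.29 and 0.31 for Plod3 and 0.20, 0.19 and 0.19 for Crtap, each of the opposite sign to that with TMM. Plod1 was then at -0.05, -0.06 and -0.06 and did not pass, and P3h1 passed at 0.67, 0.55 and 0.61. Plod2 also turned sign without AKG replicate 2 (0.013) and without AKG replicate 3 (0.031), within a leave-one-out range of -0.085 to 0.031. The median over all genes was 0.45 with total counts, which is the size of the shift. With the atrial transcript covariate 2118 genes were higher and 2215 lower of all tested, beside 3281 and 3309 without it, with 1 higher and 3 lower of the 9; the cause was not tested. Leaving out 1 library gave 1 higher and 3 to 4 lower of the 9, and 2750 to 3296 higher and 2846 to 3243 lower genes of all tested.

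For samples of the same replicate number, the correlations of their deviations from the group means were 0.161, -0.0342 and 0.0489. Pairs of unlike number ran from -0.119 to 0.067. With 3 libraries per group these values cannot show whether the number marks a shared preparation. With the replicate block 1 of the 9 was higher and 4 were lower, with 3257 and 3314 genes of all tested, and no call among the 9 changed. P4ha3, at 7 to 9 counts per Control library, is the gene whose size depth limits most.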
